A study of Mus musculus with 12 samples.

Results

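The clustered replication-dependent histone genes encode the bulk histones H2A, H2B, H3 and H4, which form the nucleosome core, and the linker histones H1.1 to H1.5, encoded by H1f1 to H1f5. Members were the probe sets whose gene symbols all belonged to these clusters, with older symbols counted as the same genes. The family was chosen by the log2 difference of 4 genes (H2bc18, H2bc3, H2bc14 and H4c6) between KD2 and KD1 stem cells, so those values are described and not tested. This gave 50 probe sets out of 23410 that carry a gene symbol. They name 50 of the 65 genes in the family, 44 of them on chromosome 13 and 6 on chromosome 3. Of the 50 probe sets 26 name 1 gene, and 24 name several near-identical copies that the array cannot separate. Probe sets with the same kind of shared content were treated as 1 set, which left 31 single genes or sets. The H2B shared set holds 7 probe sets that each name 14 or 15 genes, the H3 shared set holds 10 probe sets for 12 genes, and the H4 shared set holds 5 probe sets for 11 genes. Probe sets within a shared set read the same transcripts and are not independent, and 2 pairs of member probe sets had equal values on all arrays. For 15 genes, most of them H2A genes, no member probe set was found.

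The RNA came from R1 mouse embryonic stem cells (ESCs) grown on embryonic fibroblasts whose division was blocked with mitomycin. The cells carried a knockdown of Smarcd1, a subunit of the BAF chromatin remodelling complexes, in lines labelled KD1 and KD2, or a scrambled control. Cells that had been in 1 µM retinoic acid (RA) without leukemia inhibitory factor for 4 days gave 4 KD1 and 2 scrambled arrays. Undifferentiated ESCs gave 2 KD2, 2 KD1 and 2 scrambled arrays. The labels speak of clones and of biological replicates without saying how cultures were kept apart, so a p-value here reflects array-to-array spread that may be technical in part, and a difference between lines cannot be told apart from the knockdown. Values are deposited log2 RMA summaries, the number of arrays limits their precision, and a level is never set against that of another probe set.

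Replication-dependent histone genes have no introns, and their mRNAs end in a stem-loop in place of a poly(A) tail. The stem-loop binding protein Slbp holds that end and is needed for processing, export and translation. Transcription is switched on at the start of S phase through Npat, a substrate of cyclin E with its kinase, and the mRNAs are destroyed when DNA synthesis stops, so histone mRNA is usually abundant in a population that divides as fast as ESCs. From some members, H1f2 and H2bc4 among them, polyadenylated transcripts have also been described in differentiated tissue.

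The promoters of H2bc18, H2bc3, H2bc14 and H4c6 are shown because these 4 genes led to the choice of the family, and that of H1f2 as a member of another class, with another pattern after RA. Each line gives the 250 bases before the annotated transcript start, from RefSeq on GRCm38.p6, 5′ to 3′ along the gene. Capitals mark the octamer ATGCAAAT, the CCAAT box (CCAAT), the TATA box in the form TATAAA and the H1 box AAACACA, on either strand.
H2bc18, chr3:96269450-96269699, plus strand: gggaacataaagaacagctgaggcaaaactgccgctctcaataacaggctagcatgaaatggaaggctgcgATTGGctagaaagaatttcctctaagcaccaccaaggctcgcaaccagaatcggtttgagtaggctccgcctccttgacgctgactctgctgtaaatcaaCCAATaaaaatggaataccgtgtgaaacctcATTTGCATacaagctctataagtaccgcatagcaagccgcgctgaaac
H2bc3, chr13:23746484-23746733, plus strand: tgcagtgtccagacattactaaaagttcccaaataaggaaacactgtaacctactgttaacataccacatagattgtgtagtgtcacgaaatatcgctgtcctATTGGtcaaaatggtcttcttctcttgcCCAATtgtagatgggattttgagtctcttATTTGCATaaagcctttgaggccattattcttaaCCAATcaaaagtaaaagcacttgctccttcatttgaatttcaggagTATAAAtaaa
H2bc14, chr13:21721794-21722043, plus strand: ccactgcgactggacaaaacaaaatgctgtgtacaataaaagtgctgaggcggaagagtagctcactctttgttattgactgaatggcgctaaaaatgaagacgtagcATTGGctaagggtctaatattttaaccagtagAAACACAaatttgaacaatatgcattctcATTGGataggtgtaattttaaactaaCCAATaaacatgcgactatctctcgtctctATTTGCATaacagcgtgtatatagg
H4c6, chr13:23551669-23551918, minus strand: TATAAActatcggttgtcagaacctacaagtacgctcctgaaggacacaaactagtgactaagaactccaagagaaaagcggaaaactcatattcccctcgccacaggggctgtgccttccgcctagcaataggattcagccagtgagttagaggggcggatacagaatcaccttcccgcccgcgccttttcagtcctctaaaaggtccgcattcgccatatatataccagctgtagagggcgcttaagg
H1f2, chr13:23738557-23738806, plus strand: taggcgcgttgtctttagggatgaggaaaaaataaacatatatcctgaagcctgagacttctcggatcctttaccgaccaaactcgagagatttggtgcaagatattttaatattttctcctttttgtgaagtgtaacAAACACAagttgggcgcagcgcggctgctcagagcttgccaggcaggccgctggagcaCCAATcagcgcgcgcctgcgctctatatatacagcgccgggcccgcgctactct
The octamer stands in reverse orientation, as ATTTGCAT, in all 3 H2B promoters shown, its first base 48 bases before the start in H2bc18, 90 in H2bc3 and 25 in H2bc14. The octamer is the element that the factor Oct1 uses at H2B genes. Over windows of 300 bases that also take in 50 bases after the start, it occurred on either strand in 7 of 16 H2B and 6 of 17 H2A promoters, in 0 of 11 H4, 0 of 10 H3 and 0 of 5 H1 promoters, and in 1.74% of all 32851 promoters in the table. The CCAAT box occurred in 51 of 59 member promoters (86.4%, against 37.4% of all), but in 3 of 11 H4 promoters. TATAAA occurred in 57.6% of member promoters and 13.6% of all, and in H4c6 only at the far end of the window. The H1 box occurred in 4 of 5 H1 promoters and in 7.18% of all. No 2 of these motifs overlapped in the promoters shown. These are matches of letters, and no factor binding was measured.

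Smarcd1 was read first as a check of the labels. Its log2 level was 6.36, 6.61, 6.50 and 6.44 in RA KD1 cells, 8.84 and 8.64 in RA scrambled cells, 8.56 and 7.16 in KD2 ESCs, 7.75 and 7.78 in KD1 ESCs, and 8.67 and 8.68 in scrambled ESCs. The library labelled KD2 replicate 1 therefore lay within 0.12 of the scrambled ESCs, and the other KD2 array was low. Every KD2 result below rests on 2 arrays that differ in this way, and the pooled spread of all comparisons includes them. Array weights were 0.128 for each KD2 array and at least 1.212 for the others. All 9 ESC markers fell and all 9 RA markers rose in RA scrambled cells relative to scrambled ESCs (limma, adjusted p below 0.05), as the labels state. Of 50 member probe sets, 47 passed a filter on low signal, and H2ac8, H2bc21 and H3c7 did not.

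The 4 genes that led to the choice of the family were higher in both KD2 ESC arrays than in every other array of the series. H2bc18, an H2B gene on chromosome 3, read 6.61, 6.77, 6.72 and 6.78 in RA KD1 cells, 6.78 and 6.62 in RA scrambled cells, 7.65 and 7.60 in KD2 ESCs, 6.10 and 6.02 in KD1 ESCs, and 6.27 and 6.05 in scrambled ESCs. Both RA groups overlapped each other and lay between the KD2 and the other ESC arrays. H2bc3, an H2B gene on chromosome 13, read 6.72, 6.71, 6.34 and 6.60 in RA KD1, 6.91 and 6.67 in RA scrambled, 7.84 and 7.65 in KD2 ESCs, 6.44 and 6.28 in KD1 ESCs, and 6.50 and 6.42 in scrambled ESCs. Outside KD2 the groups of H2bc3 lay close together, with RA KD1 overlapping every other group but KD2. H2bc14, also an H2B gene on chromosome 13, read 8.36, 8.63, 8.61 and 8.50 in RA KD1, 9.03 and 8.65 in RA scrambled, 9.46 and 9.42 in KD2 ESCs, 8.33 and 7.97 in KD1 ESCs, and 8.50 and 8.05 in scrambled ESCs. Its RA scrambled arrays were above all RA KD1 arrays, by little. H4c6, which encodes histone H4, read 8.84, 8.94, 8.81 and 8.64 in RA KD1, 9.69 and 9.57 in RA scrambled, 10.04 and 9.92 in KD2 ESCs, 8.82 and 8.62 in KD1 ESCs, and 8.84 and 8.76 in scrambled ESCs. For H4c6 the RA scrambled arrays stood clear of RA KD1 and of the KD1 and scrambled ESCs, which overlapped. Because levels are per bulk sample, fewer cells in S phase and less histone mRNA per cell cannot be told apart.

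**Figure D1:**
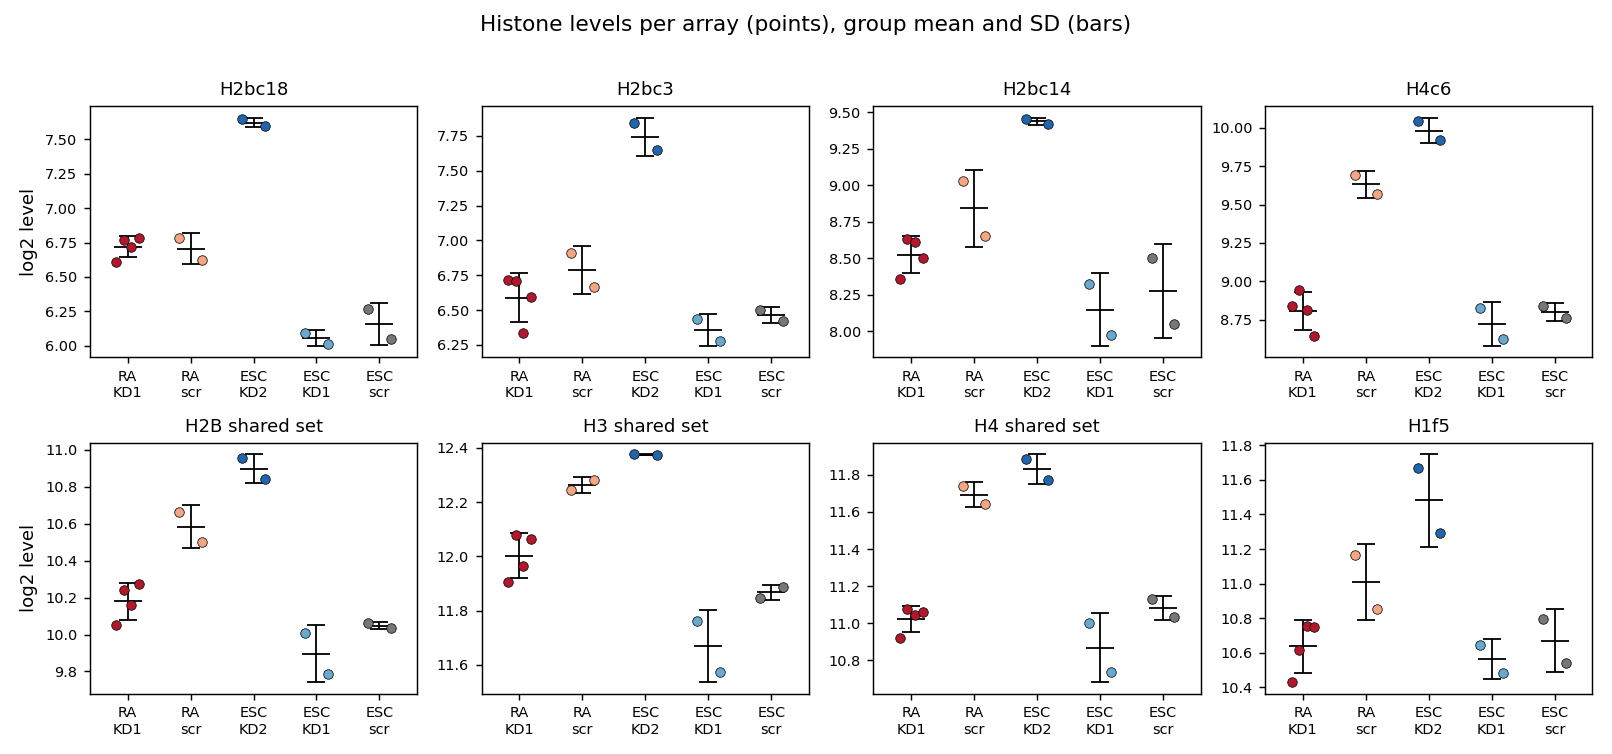
Log2 level (vertical axes, each with its own range) of 8 single genes or shared sets in the 5 groups, 1 point per array, with the group mean and SD as bars. KD2 ESCs are highest in every panel, and in the H4 panels RA scrambled cells lie above RA KD1 cells (H4c6 9.63 ± 0.09, n = 2, against 8.81 ± 0.12, n = 4).

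The comparison of KD2 with KD1 ESCs chose the family, so its values are a description and nothing is read from the counts. H2bc18 was 1.56 higher, H2bc3 1.39, H2bc14 1.29, H4c6 1.26, H2ac4 1.20, H4c4 1.16 and H1f1 1.07 higher in KD2 on the log2 scale, and the H2B shared set 1.00. At the opposite end H3c15 was -0.52, H1f2 -0.28 and H4c11/H4c17 -0.12. In all 33 of 47 member probe sets were past the threshold (limma, adjusted p below 0.05) and higher, where 0.561% of all 15319 probe sets tested were, and 0 were lower, where 1.91% of all were. The median member change was 0.74, against -0.02 for all probe sets. The same KD2 arrays set against scrambled ESCs are likewise a description, since they entered the choice and the 4 genes are counted again: 30 of 47 member probe sets were past the threshold and higher (2.67% of all) and 0 lower (6.33%), with a median of 0.64. By class these were 12 of 15 H2B, 9 of 12 H4, 6 of 12 H3, 2 of 4 H1 and 1 of 3 H2A probe sets.

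The values of each KD2 array taken singly are also a description and test nothing, because both arrays entered the choice of the family. Between the KD2 arrays 14 of 28 tested genes or sets differed by less than 0.3. Replicate 1 lay above all KD1 and scrambled ESC arrays for 44 of 47 member probe sets, as 22.5% of all probe sets did. Replicate 2 did so for 37 of 47, as 41.0% of all did. Counted as genes or sets these were 25 and 18 of 28. With replicate 1 left out the median member change from scrambled was 0.62 in KD2, and with replicate 2 left out it was 0.77. Differences over 1 log2 unit between the KD2 arrays occurred in H1f2, H1f3, H2bc4, H3c15, H4c9 and H4c11/H4c17. H1f3, the gene of linker histone H1.3, read 5.10 in replicate 1 and 4.06 in replicate 2. For these 6 the KD2 mean describes neither array.

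The comparison of KD1 with scrambled ESCs is also a description, because the KD1 ESC arrays entered the choice of the family. Relative to scrambled ESCs, 0 of 47 member probe sets were past the threshold in either direction, where 0.731% of all were higher and 1.20% lower. With array weights 1 member probe set was called lower, where 8.41% of all were called in either direction. Leaving out both KD2 arrays left 0 members, where 7.48% of all were called. Changes were negative for 41 of 47, among them all 12 H4 probe sets (median -0.22, none past the threshold). The median over members was -0.18 (-0.11 counted as genes or sets), against 0.00 for all probe sets. Changes ran from -1.09 to 0.15. The lowest was H2ac1, an H2A gene expressed mainly in testis, where scrambled replicate 2 alone was high.

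**Figure D2:**
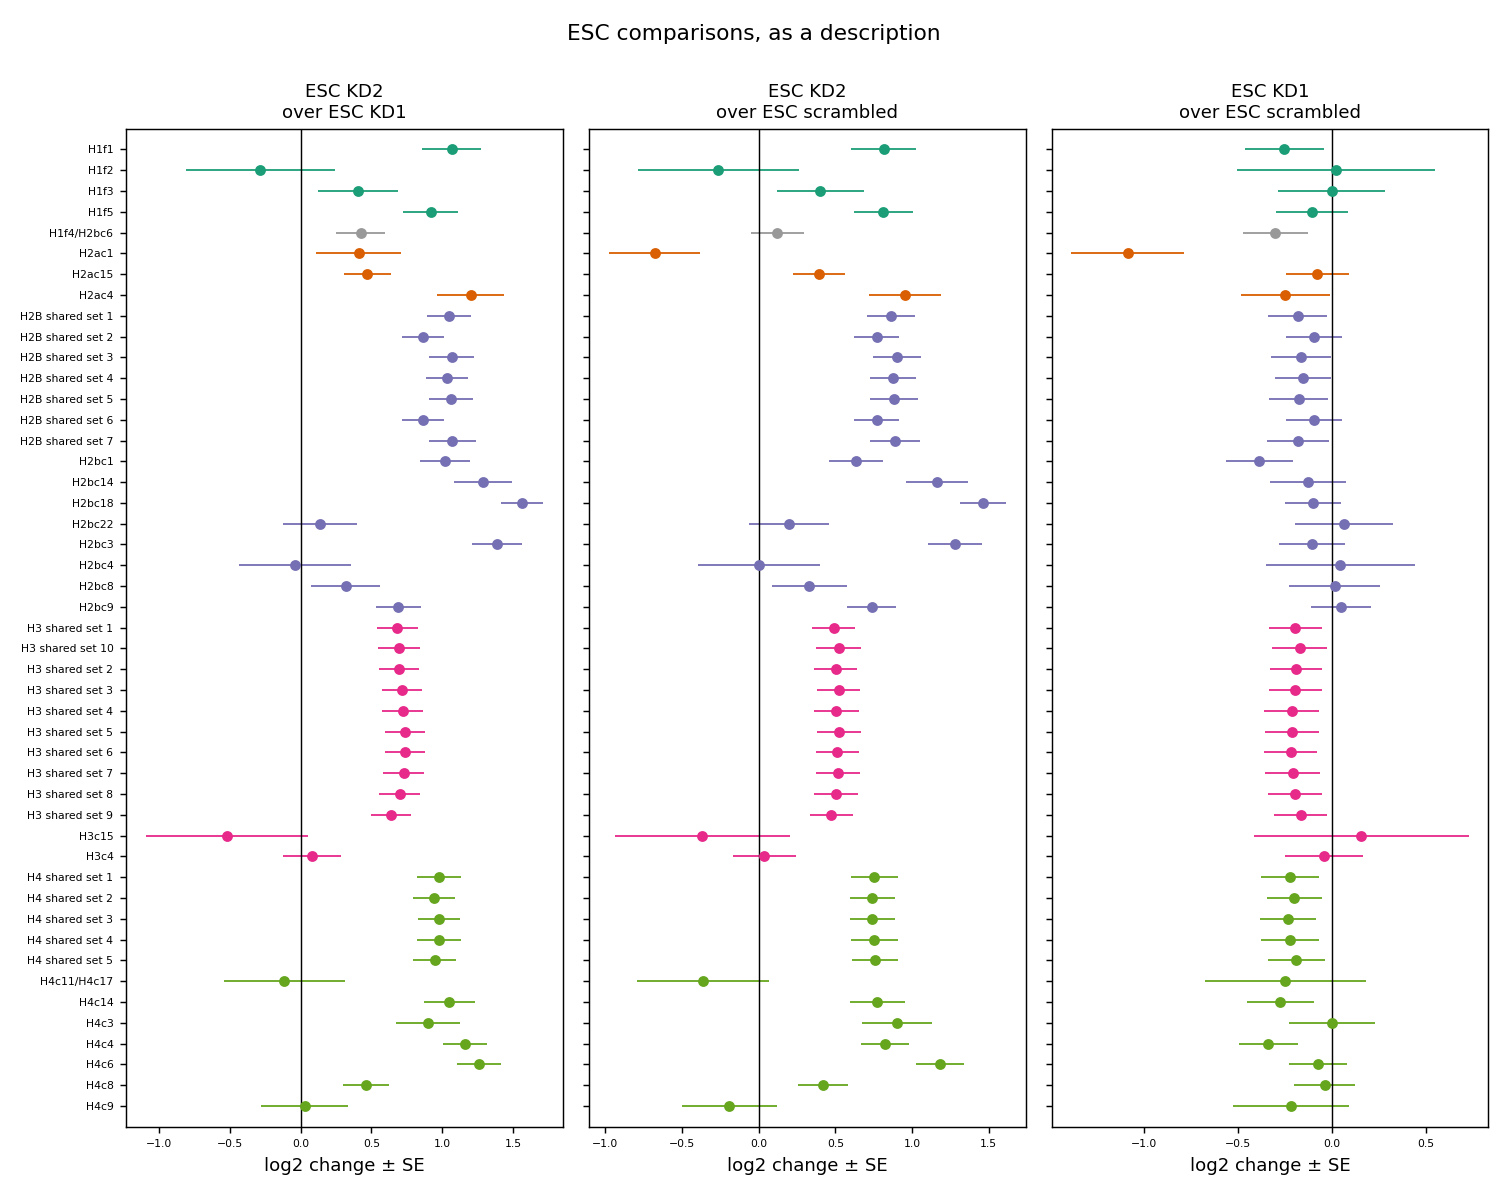
Log2 change ± SE (horizontal axes) of each of the 47 member probe sets tested, for KD2 over KD1, KD2 over scrambled and KD1 over scrambled ESCs, coloured by histone class. Most points lie right of 0 where KD2 is compared and slightly left of 0 for KD1 over scrambled. The panels share arrays pairwise.

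Differentiation of the scrambled cells, which uses no KD1 or KD2 array, was next. The H4 and H2B shared sets and several single H4 and H2B genes rose after RA, and no H1 or H2A probe set did. Of 47 member probe sets 23 rose (21.2% of all probe sets did) and 3 fell (16.2% of all), and most of the 23 read the shared sets (7 of H2B, 5 of H4 and 5 of H3). Counted as genes or sets, 8 of 28 rose on every probe set and 3 fell, so the count leans on repeated probe sets. The median member change was 0.40 against 0.05 for all, or 0.26 counted as genes or sets. For 33 of 47 both RA scrambled arrays lay above both scrambled ESC arrays, where 42.3% of all probe sets did. Counted as genes or sets this held for 14 of 28. Among H4 probe sets 9 of 12 rose and 1 fell, with H4c6 at 0.83 ± 0.16 (limma, adjusted p = 0.00147) and H4c4 at 0.63 ± 0.16 (limma, adjusted p = 0.0082). The 5 probe sets of the H4 shared set averaged 11.69 ± 0.07 in RA scrambled cells and 11.08 ± 0.07 in scrambled ESCs (SD, n = 2 each), and rose by 0.59 to 0.63. Of 15 H2B probe sets 9 rose, namely all 7 of the shared set (0.48 to 0.60), H2bc18 (0.55 ± 0.15, limma adjusted p = 0.0128) and H2bc14 (0.57 ± 0.20, limma adjusted p = 0.0474). The H2bc14 change missed the threshold in 16 of the other fits and ran from 0.34 to 0.79 with an array left out. H2bc3 (0.32, limma adjusted p = 0.176) and H2bc9 (0.35, limma adjusted p = 0.106) did not pass. Of 10 H3 shared probe sets 5 rose, in a range of all 10 from 0.38 to 0.44, so the called and uncalled ones hardly differ. None of the 4 H1 probe sets passed; H1f5 stood at 0.34 (limma, adjusted p = 0.197) and H1f1 at 0.20.

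With each array's median set equal, 11 member probe sets rose and 3 fell, since that scaling moved the median of all probe sets in this comparison to -0.06 and the members' median to 0.29. In that fit 37.1% of all probe sets were called in either direction, against 37.4% in the main fit. The calls also leaned on single arrays: fewer members passed when any compared array was left out, and the share over all probe sets fell too. Each such fit leaves 1 array in a group, so only effect sizes are given. The median member change ran from 0.39 to 0.41 with an array left out, and the change of H4c6 from 0.77 to 0.90.

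After RA, KD1 cells had less histone H4 mRNA than scrambled cells. Of 47 member probe sets 12 were lower (11.0% of all probe sets were) and 1 was higher (9.95% of all), with a median of -0.28 against -0.03. The H4 class made up 9 of the 12, and counted as genes or sets 5 of 28 were lower on every probe set, all of them H4, and 1 was higher. H4c6 averaged 8.81 ± 0.12 in RA KD1 cells (SD, n = 4) and 9.63 ± 0.09 in RA scrambled cells (SD, n = 2), a change of -0.82 ± 0.13 or 0.565-fold (limma, adjusted p = 0.00111). The H4 shared set read 10.92, 11.07, 11.04 and 11.06 in RA KD1 cells and 11.74 and 11.65 in RA scrambled cells, and its probe sets changed by -0.72 to -0.63 (limma, adjusted p from 0.00251 to 0.00485). No RA KD1 array reached an RA scrambled one. H4c4 read 9.94, 10.12, 10.06 and 10.04 in RA KD1 against 10.71 and 10.59 in RA scrambled, a change of -0.61 ± 0.14 (limma, adjusted p = 0.00729). H4c8 read 5.10, 5.27, 5.24 and 5.20 in RA KD1 against 5.87 and 5.82 in RA scrambled, a change of -0.65 (limma, adjusted p = 0.00682). The 4 RA KD1 arrays of both genes sat below both RA scrambled arrays by about as much as the shared set. H4c14 changed by -0.49 (limma, adjusted p = 0.0433), whereas H4c3 (-0.43, limma adjusted p = 0.16), H4c11/H4c17 (-0.79, limma adjusted p = 0.17) and H4c9 (-0.10, limma adjusted p = 0.855) did not pass.

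Outside H4, 3 probe sets of the H2B shared set were lower and H2bc4 was higher, and no H1, H2A or H3 probe set passed. In the H2B shared set, RA KD1 cells read 10.05, 10.24, 10.16 and 10.27 and RA scrambled cells 10.67 and 10.50, without overlap, and 3 of its 7 probe sets passed (-0.48 to -0.32, limma adjusted p from 0.0274 to 0.105). H2bc18 did not pass the test, at 0.01 ± 0.13 (limma, adjusted p = 0.958), a value whose sign changed with several settings. H2bc14 (-0.32, limma adjusted p = 0.256) and H2bc3 (-0.20, limma adjusted p = 0.437) did not pass either. All 10 H3 shared probe sets were negative, between -0.29 and -0.21, and 0 of 12 H3 probe sets passed. None of the 3 H2A or 4 H1 probe sets passed, with H1f2 at 1.26, H1f1 at -0.27, H1f3 at 0.04 and H1f5 at -0.37. Arrays of the groups did not overlap, with RA KD1 lower, for 33 of 47 member probe sets, where 27.7% of all probe sets showed this. Counted as genes or sets it held for 14 of 28.

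This comparison shares its RA scrambled arrays with that of RA scrambled cells and scrambled ESCs, so a high value on those arrays enters both with opposite sign. Called counts depended on arrays outside it: without both KD2 ESC arrays 21 were lower and 2 higher, where 35.4% of all probe sets were called in either direction. Fewer members passed when either RA scrambled array was left out, which leaves 1 array in that group, and the share over all probe sets fell too. H4c6 passed in every fit run, at -0.89 to -0.76 with an array left out. Without RA scrambled replicate 1, H4c8 (-0.62), H4c4 (-0.55) and H4c14 (-0.32) missed the threshold. The H4 shared set averaged -0.62 in that fit, and not all of its probe sets passed. The H4c14 call was lost in 14 of the other fits.

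**Figure D3:**
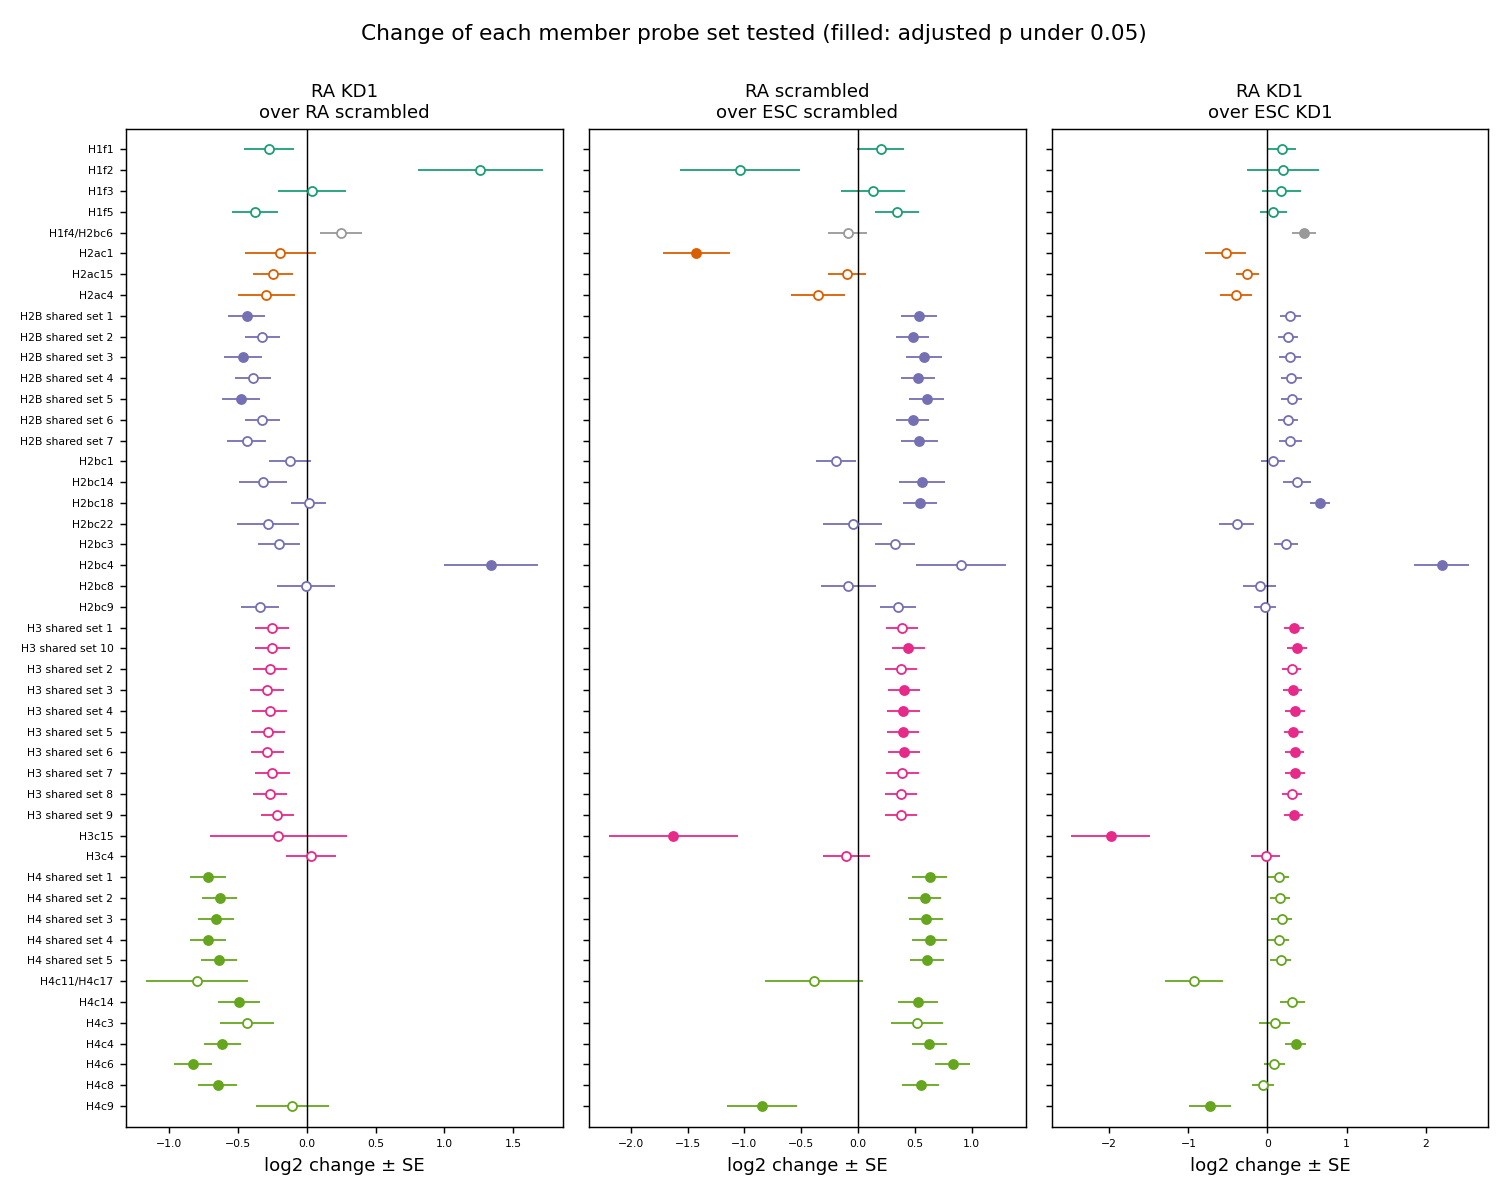
Log2 change ± SE (horizontal axes) of the 47 member probe sets tested, coloured by class, for RA KD1 over RA scrambled, RA scrambled over ESC scrambled and RA KD1 over ESC KD1; filled points have an adjusted p below 0.05. The H4 points all lie left of 0 in the first panel and, but for H4c9 and H4c11/H4c17, right of 0 in the second, and H2bc4 is far right in both panels of RA KD1 cells.

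Several members departed from the rest of the family. H2bc4, an H2B gene on chromosome 13, read 7.15, 7.45, 7.64 and 7.91 in RA KD1 cells, 6.08 and 6.32 in RA scrambled cells, 4.52 and 6.08 in KD2 ESCs, 5.43 and 5.25 in KD1 ESCs, and 5.15 and 5.44 in scrambled ESCs. All RA KD1 arrays were above all others, and KD2 replicate 1 was the lowest array. The gene rose by 1.34 ± 0.34 in RA KD1 relative to RA scrambled cells, or 2.53-fold (limma, adjusted p = 0.016), and by 2.20 ± 0.34 relative to KD1 ESCs (limma, adjusted p = 0.000286). In scrambled cells its RA change was 0.91 ± 0.40 (limma, adjusted p = 0.0951). The first of these missed the threshold without either RA scrambled array (limma, adjusted p = 0.14 without replicate 1 and 0.0757 without replicate 2).

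H1f2, the gene of linker histone H1.2, read 8.35, 8.39, 8.95 and 8.61 in RA KD1 cells, 7.35 and 7.28 in RA scrambled cells, 9.25 and 6.93 in KD2 ESCs, 8.40 and 8.35 in KD1 ESCs, and 8.22 and 8.48 in scrambled ESCs. The RA scrambled arrays and KD2 replicate 2 were low, and all other arrays were above 8. The change in RA KD1 over RA scrambled cells was 1.26 ± 0.45 (limma, adjusted p = 0.0742), with the spread pooled over arrays that include the discordant KD2 pair. Fitted without that pair the same change had an adjusted p of 0.000209 (limma). In RA scrambled over ESC scrambled cells H1f2 changed by -1.04 ± 0.53 (limma, adjusted p = 0.147).

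H3c15, an H3 gene on chromosome 3, read 4.62, 4.62, 4.95 and 4.77 in RA KD1 cells, 5.55 and 4.34 in RA scrambled cells, 7.33 and 5.08 in KD2 ESCs, 6.55 and 6.90 in KD1 ESCs, and 6.30 and 6.84 in scrambled ESCs. It fell by 1.98 ± 0.49 in RA KD1 relative to ESC KD1 cells (limma, adjusted p = 0.00608) and by 1.62 ± 0.57 in RA scrambled relative to ESC scrambled cells (limma, adjusted p = 0.0428). Both RA groups were below the KD1 and scrambled ESCs, opposite to the H3 shared set, and the scrambled change missed the threshold in 13 of the other fits. H4c9 also fell with RA, to 6.23, 6.20, 6.59 and 6.37 in RA KD1 cells and 6.60 and 6.30 in RA scrambled cells, against 7.25 and 6.90 in KD1 ESCs and 7.08 and 7.51 in scrambled ESCs (KD2 ESCs 7.66 and 6.55). The H4c9 changes were -0.73 ± 0.27 in KD1 (limma, adjusted p = 0.0411) and -0.85 ± 0.31 in scrambled cells (limma, adjusted p = 0.0496), and missed the threshold in 11 and 16 of the other fits. H2ac1 read 6.80, 6.47, 6.94 and 6.97 in RA KD1, 6.99 ± 0.02 (SD, n = 2) in RA scrambled, 7.81 and 7.65 in KD2 ESCs, 7.22 and 7.42 in KD1 ESCs, and 7.84 and 8.97 in scrambled ESCs. It fell by 1.42 ± 0.30 in RA scrambled cells relative to scrambled ESCs (limma, adjusted p = 0.00305), and by 0.86 with the high scrambled replicate 2 left out. H4c11/H4c17 was chosen here after its values were seen: it read 5.69, 5.86, 5.83 and 5.39 in RA KD1, 6.53 and 6.44 in RA scrambled, 7.19 and 5.83 in KD2 ESCs, 7.20 and 6.04 in KD1 ESCs, and 6.58 and 7.17 in scrambled ESCs, and passed in no comparison.

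**Figure D4:**
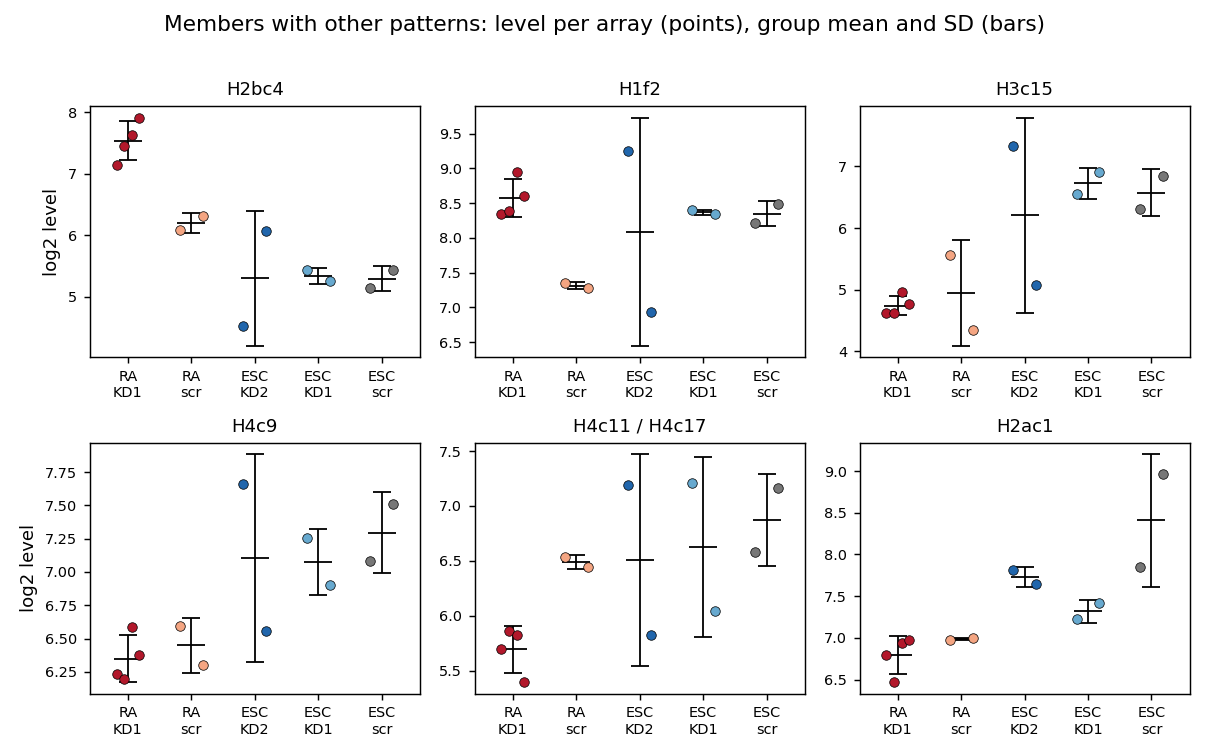
Log2 level (vertical axes, each with its own range) of 6 members with other patterns, 1 point per array, with the group mean and SD as bars. RA KD1 cells are highest for H2bc4 (7.54 ± 0.32, n = 4, against 6.20 ± 0.17 in RA scrambled cells, n = 2), RA scrambled cells are low for H1f2, and the KD2 arrays are far apart in every panel but that of H2ac1.

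The change with RA in KD1 cells uses the 2 KD1 ESC arrays of the comparison that chose the family. In RA KD1 relative to KD1 ESCs 12 of 47 member probe sets rose (26.8% of all) and 2 fell (21.2%), with a median of 0.23 against 0.01. Besides H2bc4, these were H2bc18 at 0.66 ± 0.13 (limma, adjusted p = 0.00126), H1f4/H2bc6 at 0.46 (limma, adjusted p = 0.0249), H4c4 at 0.36 (limma, adjusted p = 0.0476) and 8 of 10 H3 shared probe sets (0.31 to 0.37 over all 10). Counted as genes or sets, 4 of 28 rose on every probe set and 2 fell, with a median of 0.088. H4c6 changed by 0.09 ± 0.13 (limma, adjusted p = 0.624) and the H4 shared set by 0.14 to 0.18 (limma, adjusted p from 0.278 to 0.411). With RA KD1 replicate 1, 2, 3 or 4 left out, 10, 3, 4 and 3 members passed in either direction. Of all probe sets 43.3%, 43%, 43.3% and 43.4% did in these fits, against 48% in the main fit. Without both KD2 ESC arrays 24 members passed (61.9% of all). Fewer members passed when either KD1 ESC array was left out, which leaves 1 array in that group, and the share over all probe sets fell too.

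Whether RA changed a member differently in KD1 and in scrambled cells was tested as an interaction. It uses the KD1 ESC arrays, which entered the choice of the family. None of the 47 member probe sets passed (limma, 7.21% of all probe sets did). With array weights 5 passed (18.4% of all did), 3 higher and 2 lower. Without the KD2 arrays 4 passed (17.5% of all), 2 higher and 2 lower. The value for H4c6 was -0.75 ± 0.21 (limma, adjusted p = 0.0509, and 0.0133 without the KD2 arrays). For H2bc4 it was 1.29 (limma, adjusted p = 0.188, and 0.0125 without the KD2 arrays). For H1f2 it was 1.24 (limma, adjusted p = 0.374, and 0.00755 without the KD2 arrays). H4c8 stood at -0.61 (limma, adjusted p = 0.13) and the H4 shared set at -0.49 to -0.42 (limma, adjusted p from 0.2 to 0.265). The median member value was -0.16 (-0.13 counted as genes or sets), against -0.03 for all probe sets.

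Some histone probe sets fall just outside the rule. H4f16, an H4 gene away from the clusters on chromosome 6, differed by 0.91 between KD2 and KD1 ESCs, by -0.51 ± 0.16 between RA KD1 and RA scrambled cells (limma, adjusted p = 0.0433) and by 0.61 ± 0.19 between RA scrambled cells and scrambled ESCs (limma, adjusted p = 0.0236). These are close to the values of H4c14. Both probe sets that name clustered H2A genes together with H2ax were left out of the family, and were 0.56 and 0.66 higher in KD2 than in scrambled ESCs, with no call in either RA comparison of the scrambled cells.

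Genes that make, process and load histones were read from hand-written lists. Their counts stand beside 9.95% of all probe sets higher and 11.0% lower in RA KD1 than in RA scrambled cells, 21.2% and 16.2% in RA scrambled over ESC scrambled cells, and 26.8% and 21.2% in RA KD1 over ESC KD1 cells. Slbp, on both of its probe sets, and Npat passed in no comparison. On its brighter probe set Slbp read 9.18 ± 0.13 in RA KD1 cells (SD, n = 4), 9.41 and 9.30 in RA scrambled cells, 8.23 and 9.59 in KD2 ESCs, 9.10 and 9.09 in KD1 ESCs, and 9.41 and 9.29 in scrambled ESCs. The KD2 arrays were its lowest and highest, although both were high for histone mRNA. Of 27 genes of histone mRNA processing and transcription, 2 were higher and 3 lower in RA KD1 than in RA scrambled cells, with Zfp473, the U7 particle's zinc finger protein ZFP100, at 0.80 and Eri1, the exonuclease that trims the histone stem-loop, at -0.57 (limma, adjusted p = 0.0254 and 0.0101). These counts are near the shares over all probe sets. In RA scrambled over ESC scrambled cells 5 of the 27 were higher and 2 lower, no larger a share than over all probe sets; Lsm11, of the U7 particle, rose by 0.62, Tut4, a terminal uridylyltransferase, by 1.20, and Hinfp, a transcription factor of H4 genes, fell by 0.95 (limma, adjusted p = 0.0123, 0.000287 and 0.00189). In RA KD1 over ESC KD1 cells 7 were higher and 4 lower, Hinfp again among the lower ones (-0.74, limma adjusted p = 0.0026).

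Among 39 S phase genes, 11 were lower (11.0% of all probe sets were) and 1 was higher (9.95%) in RA KD1 than in RA scrambled cells, with a median of -0.38 against -0.03 for all probe sets. These included Cdca7 (-1.69, limma adjusted p = 2.75e-05), Rrm1 of ribonucleotide reductase (-0.80, limma adjusted p = 0.00608) and Cdt1, which licenses origins (-0.80, limma adjusted p = 0.0227), while Orc1, of the origin recognition complex, was higher (0.94, limma adjusted p = 0.00278). The mean over the list was 8.38 to 8.42 in RA KD1 cells, 8.82 and 8.67 in RA scrambled cells, 8.57 and 9.24 in KD2 ESCs, 8.89 and 8.76 in KD1 ESCs, and 9.06 and 9.03 in scrambled ESCs. It was thus lower in RA scrambled cells than in scrambled ESCs, where the H4 and H2B shared sets were higher: 8 S phase genes fell (16.2% of all did) and 1 rose (21.2%) there, with a median of -0.30. The KD2 arrays were again apart. Of 23 G2 and mitosis genes 1 was lower in RA KD1 than in RA scrambled cells. The list of CDK inhibitors and cell cycle exit genes also holds the D-type cyclins Ccnd1, Ccnd2 and Ccnd3, which are not inhibitors. Of its 17 genes 10 were higher in RA scrambled than in ESC scrambled cells (21.2% of all were), Cdkn1c (p57) by 3.58 (limma, adjusted p = 1.26e-05). Ccnd2 (2.66, limma adjusted p = 9.02e-05) and Ccnd3 (1.51, limma adjusted p = 0.0131) were among the 10, so the count does not measure cell cycle exit alone. Between RA KD1 and RA scrambled cells 3 were higher and 3 lower. The lower ones included Cdkn1c (-2.52, limma adjusted p = 8.4e-05) and Ccnd1 (-1.82, limma adjusted p = 0.000136).

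**Figure D5:**
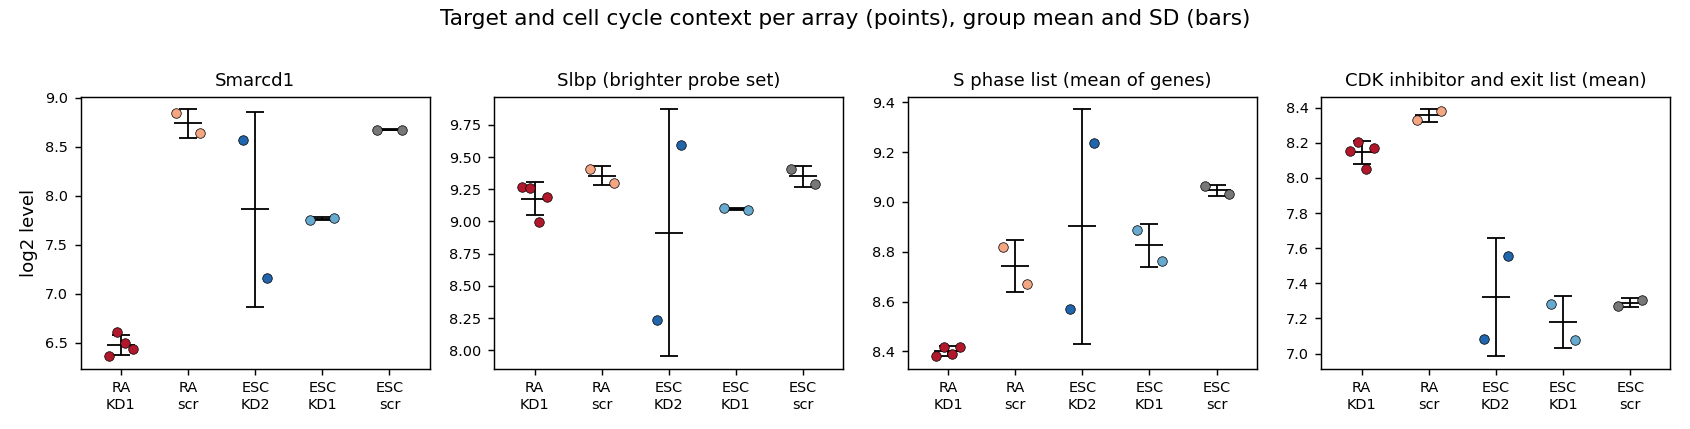
Log2 level of Smarcd1 and of the brighter Slbp probe set, and the mean log2 level of the S phase and of the CDK inhibitor and cell cycle exit lists (vertical axes, each with its own range), 1 point per array with the group mean and SD as bars. The CDK inhibitor and exit list also holds D-type cyclins. The KD2 arrays lie far apart in each panel, and the S phase mean is lowest in RA KD1 cells (8.38 to 8.42).

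Of 23 histone chaperones 5 were lower (11.0% of all probe sets were) and 0 higher (9.95%) in RA KD1 than in RA scrambled cells, among them Asf1a (-1.42, limma adjusted p = 0.000301), which carries H3 with H4, and Nasp (-1.08, limma adjusted p = 0.0046), which keeps a pool of soluble H3 and H4. Of 9 replication-independent variants 3 were lower and 0 higher, beside the same shares over all: Macroh2a2 by -2.31 (limma, adjusted p = 3.21e-06), Macroh2a1 by -0.95 (limma, adjusted p = 0.00876) and H1f10 by -0.52 (limma, adjusted p = 0.0177). Both macroH2A genes, whose products are variants with a large extra domain, rose in RA scrambled cells relative to scrambled ESCs, by 2.02 and 1.04 (limma, adjusted p = 1.73e-05 and 0.00725). Markers of feeder cells and fibroblasts moved too, though not all in the same direction. In RA KD1 relative to RA scrambled cells 5 of 11 were lower and 0 higher (11.0% and 9.95% of all). In RA scrambled over ESC scrambled cells 5 were higher and 3 lower (21.2% and 16.2% of all). In RA KD1 over ESC KD1 cells 3 were higher and 6 lower (26.8% and 21.2% of all). The mean over the 13 on the array was 6.21 to 6.59 in RA KD1 and 7.20 and 7.50 in RA scrambled cells. In ESCs it was 6.04 and 6.39 for KD2, 6.66 and 5.83 for KD1, and 6.84 and 6.91 for scrambled. The part of these markers in the histone differences was not tested, nor was that of the S phase genes.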

How the data were processed

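Affymetrix mouse gene arrays, 12 in all, were hybridised with biotin-labelled material from total RNA; how the labelling was primed is not stated in the labels, which matters for mRNAs without a poly(A) tail. The authors deposited log2 summaries per probe set, made with RMA per the submitters' processing notes, with no version or settings named there. They ran from 1.74 to 13.57. Genes were named from the platform's gene table (21789 probe sets with 1 symbol, 1621 with several, 12146 of 35556 not listed), and chromosomes and promoters from RefSeq. Probe sets above percentile 40 (4.56) on at least 2 arrays were tested, 15319 in all. A group-means model over all 12 arrays was fitted with limma 3.58.1 in R 4.3.3, two-sided, in 7 contrasts, with Benjamini-Hochberg adjustment over all probe sets within a contrast and a threshold of 0.05; residual degrees of freedom were 7 and the prior 4.45. The code was tested on simulated data. The members, the gene lists and the rule for named genes were chosen with earlier results of these data known. Named are the 4 genes behind the choice, all H1 genes, Smarcd1, Slbp and Npat, the 5 largest rises and falls past the threshold per comparison (near-identical copies as a set), the extremes in KD2 over KD1 ESCs, and up to 4 genes per list; not all are printed. Alternatives covered the filter, scaling, array weights, the arrays fitted, a replicate block and single arrays left out. Tables and figures used matplotlib 3.10.9, numpy 2.4.6, pandas 2.3.3 and Python 3.11.15.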

Additional observations from a re-analysis of the deposited data

Results flagged for a closer look

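H2ac15, an H2A gene, had 1 RA KD1 array apart from the other 3: replicate 4 read 5.31, where the others read 5.23, 5.23 and 5.23. The gap is small in size, and chance alone sets about 1 in 20 such groups apart. In RA scrambled cells H2ac15 read 5.64 and 5.34, and its change in RA KD1 over RA scrambled cells did not pass (-0.24, limma adjusted p = 0.294).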

How the results depend on the processing

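Counts of member probe sets past the threshold moved more with the processing than the changes themselves. The share of all probe sets past the threshold moved with the processing too. Beside each comparison's main count (33 for KD2 over KD1 ESCs, 30 for KD2 over scrambled ESCs, 0 for KD1 over scrambled ESCs, 13 for RA KD1 over RA scrambled, 26 for RA scrambled over ESC scrambled, 14 for RA KD1 over ESC KD1 and 0 for the interaction), these are the counts that differed by over 1.5 times. Brackets give the share of all probe sets tested that was past the threshold in either direction. In the main fit that share was 2.47%, 9%, 1.93%, 21%, 37.4%, 48% and 7.21%, in the same order. Array weights gave 0 (0%), 0 (0.0261%), 1 (8.41%) and 22 (35.2%) in the first 4 of these, 27 (64.7%) for RA KD1 over ESC KD1 and 5 (18.4%) for the interaction. Fitting the compared arrays alone gave 0 in both KD2 comparisons (0% in each), 22 (62.3%) for RA KD1 over ESC KD1 and 4 (17.5%) for the interaction. Leaving out both KD2 arrays gave 23 (35.4%) for RA KD1 over RA scrambled, 24 (61.9%) for RA KD1 over ESC KD1 and 4 (17.5%) for the interaction. Cyclic loess gave 17 (1.05%) for KD2 over KD1, 13 (38.8%) for RA scrambled over ESC scrambled and 4 (49.3%) for RA KD1 over ESC KD1, and median centring 14 (37.1%) for RA scrambled over ESC scrambled. With 1 probe set per gene with 1 symbol, fewer probe sets were tested (23) and the counts were 11 (2.7%), 12 (10%), 5 (22.6%), 9 (39%), 5 (50.7%) and 1 (7.86%) for KD2 over KD1, KD2 over scrambled, RA KD1 over RA scrambled, RA scrambled over ESC scrambled, RA KD1 over ESC KD1 and the interaction. RA KD1 replicates 1 and 2 alone gave 10 (0.509%), 18 (5.6%), 7 (12.2%), 15 (32.3%) and 3 (37.6%) in the first 5 of these. Replicates 3 and 4 alone gave 16 (0.653%) for KD2 over KD1. They gave 17 (32.7%) for RA scrambled over ESC scrambled and 4 (36.9%) for RA KD1 over ESC KD1. Without the filter on dim probe sets 1 (4.71%) passed in the interaction. Over single arrays left out, counts ran from 1 to 39 for KD2 over KD1, 3 to 39 for KD2 over scrambled, 0 to 1 for KD1 over scrambled, 5 to 23 for RA KD1 over RA scrambled, 3 to 34 for RA scrambled over ESC scrambled, 3 to 24 for RA KD1 over ESC KD1 and 0 to 4 for the interaction. The causes were not tested beyond what the construction of a setting shows.

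Replicate numbers were shared between groups, and the deviations of same-numbered arrays from their group means correlated between -0.208 and 0.247. In a group of 2 arrays the deviations mirror each other, so these values cannot decide whether the numbers pair the arrays. With the replicate block, the counts were 2 for KD2 over KD1 (0.0979% of all probe sets), 12 for KD2 over scrambled (4.4%), 6 for RA KD1 over RA scrambled (11.3%), 11 for RA scrambled over ESC scrambled (30.8%) and 3 for RA KD1 over ESC KD1 (35.6%). RA KD1 replicates 3 and 4 share their numbers with no other array, so with the block they add nothing to the RA KD1 changes. H4c4 and H4c8 in RA KD1 over RA scrambled stood at -0.62 and -0.66 with that block (limma, adjusted p = 0.0663 and 0.0705).

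Median member changes kept their sign in every setting. KD2 over scrambled was 0.52 without the filter on dim probe sets and 0.74 with the filter at percentile 60, and KD2 over KD1 was 0.87 with the latter. Median centring gave 0.29 for RA scrambled over ESC scrambled and -0.061 for the interaction, and 1 probe set per gene gave -0.078 for KD1 over scrambled, 0.20 for RA scrambled over ESC scrambled and 0.075 for RA KD1 over ESC KD1. Over single arrays left out the medians ran from 0.73 to 0.88 for KD2 over KD1, 0.51 to 0.77 for KD2 over scrambled, -0.28 to -0.083 for KD1 over scrambled, -0.39 to -0.25 for RA KD1 over RA scrambled, 0.39 to 0.41 for RA scrambled over ESC scrambled, 0.17 to 0.32 for RA KD1 over ESC KD1 and -0.29 to -0.025 for the interaction. The sign turned for values near 0 that passed in no fit: H2bc18 in RA KD1 over RA scrambled was -0.0079 with cyclic loess, -0.015 with the replicate block and with RA KD1 replicates 1 and 2 alone, and ran from -0.065 to 0.095 with an array left out, and H4c6 in RA KD1 over ESC KD1 ran from -0.015 to 0.19. For single members the alternatives gave 921 values on the same side of the threshold, 133 that lost it, 54 that gained it and 7 with the sign turned.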
